A study of Danio rerio with 10 samples.

Results

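The genes described here encode splicing factors and heterogeneous nuclear ribonucleoproteins (hnRNPs). They were chosen by name as every gene of the UMI table whose symbol begins with srsf, hnrnp, snrp, sf3a or sf3b, which gave 60 of 20920 genes. By role these were 16 SR protein genes, 24 hnRNP genes, 7 genes of the Sm core, 4 genes of proteins specific to the U1 or U2 particle, 3 SF3A genes and 6 SF3B genes. A reference name table gives the same symbol for 45 of the 60 gene IDs, and the others are used under the symbol of the UMI table. The name of hnrnpa0l.1 is in doubt, since the reference gives its gene ID the symbol gzf1. It is kept in the counts, shares and medians of the members, but no statement below is about it alone.

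Zebrafish embryos of the AB/TL strain received at the 1-cell stage 20 mM 4sUTP, a nucleotide that is built into newly made RNA, together with unlabelled GFP and mCherry mRNAs and a labelled RFP mRNA. Pooled embryos were dissociated at dome, at 30% epiboly or at 50% epiboly, successive blastula to early gastrula stages, and single cells were captured by Drop-seq. All libraries used here were treated with 10 mM iodoacetamide (IAA), which makes incorporated 4sU read as a T-to-C change, so that RNA is read as labelled (zygotic) or unlabelled (maternal). There were 2 libraries at 50% epiboly (replicates A and B), 2 at 30% epiboly (A and B) and 1 at dome (labelled B). According to the methods of the study, epiboly embryos of the first replicate were deyolked and dissociated by hand. Those of the second replicate and of dome were treated by shaking. The methods give no letters, and A is taken here as the first epiboly replicate and B as the second. The 5 libraries without IAA were not analysed here.

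SR proteins bind exonic enhancers through RNA recognition motifs and recruit the splicing machinery through domains rich in arginine and serine. hnRNP proteins coat nascent transcripts and often repress the use of splice sites, and several of them travel to the cytoplasm with mRNA. Sm proteins form a ring around the U1, U2, U4 and U5 small nuclear RNAs, and SF3A and SF3B are the parts of the U2 particle that hold it at the branch point. In the early embryo of animals, proteins and mRNAs stored in the egg supply these functions until the zygotic genome is transcribed.

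The libraries held 251 to 3068 cells and 557065 to 8780804 gene UMIs each, with a median of 2066 to 4087 UMIs per cell. 50% epiboly replicate B was by far the shallowest, and 1 cell barcode was found in more than 1 library. The injected unlabelled mRNAs, which give the background of the labelled fraction, were 0.570% to 0.922% labelled when pooled within a library. A list of maternal control genes was 0.384% to 0.746% labelled, and a list of zygotic control genes was 90.1% to 96.4% labelled. The paper states that estimates in single cells were often too low and left a background of unlabelled RNA. The unlabelled part of a gene can therefore hold some new RNA and is not maternal RNA alone. Levels are given in CPM, the share of a gene in all gene UMIs of its library on the usual CPM scale. Drop-seq counts 3′ ends, so no correction for gene length was made.

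The share of UMIs is given for the members together, although single members ranged from 1 UMI (srsf7b) to 343874 UMIs (hnrnpa0l) over all libraries. The 57 members with 50 or more UMIs took 5.89% of all gene UMIs at dome, 6.63% and 6.83% at 30% epiboly (A and B), and 7.12% and 6.91% at 50% epiboly (A and B). The hnRNP genes alone took 3.60% at dome and 4.08% to 4.56% in the 4 epiboly libraries. The other 3 members, srsf7b, hnrnph3 and hnrnpa3, had 1, 7 and 43 UMIs in all 8226 cells.

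The most abundant member was hnrnpa0l, an hnRNP A0 gene, with at least 1 UMI in all 8226 cells. It stood at 11440 CPM at dome, at 13951 and 12569 at 30% epiboly (A and B), and at 13356 and 13453 at 50% epiboly (A and B). hnrnpabb, another hnRNP gene of the A/B class, followed with 8910 at dome, 8358 and 9121 at 30% epiboly, and 9412 and 11936 at 50% epiboly. Next by UMIs summed over all libraries came hnrnpa0b, hnrnpa1b, hnrnpaba, snrpc, snrpa, snrpb, hnrnpub and srsf2a, with 150574 UMIs for hnrnpa0b and 45708 for srsf2a. The order within this list differed between libraries: in 50% epiboly replicate B hnrnpa1b had 1876 CPM, below snrpc with 2255, whereas in 50% epiboly replicate A it had 3893 against 2725 for snrpc.

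How much of each transcript was zygotic was asked next. The labelled fraction of a gene is the share of its UMIs that the authors' estimate assigns to new RNA, taken over cells with 3 or more UMIs of the gene. It rests on 100 or more UMIs for 53 members. Over the 5 libraries together, 1 of these 53 members was below 5% labelled, 42 were from 5% to 65% labelled and 10 were above 65%. With pairs of 1 or more UMIs 6 members were above 65%, and at dome alone 18 of 51 members were below 5% and 3 above 65%. Among all 2945 genes with as many UMIs, 23.8% were below 5%, 56.5% were in between and 19.7% were above 65%. The median was 25.2% over the members and 18.8% over all genes. Of the 7 other members, srsf7b, hnrnph3 and hnrnpa3 had no cell with 3 UMIs, and the remaining 4 had from 3 to 40 UMIs behind the fraction.

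**Figure D1:**
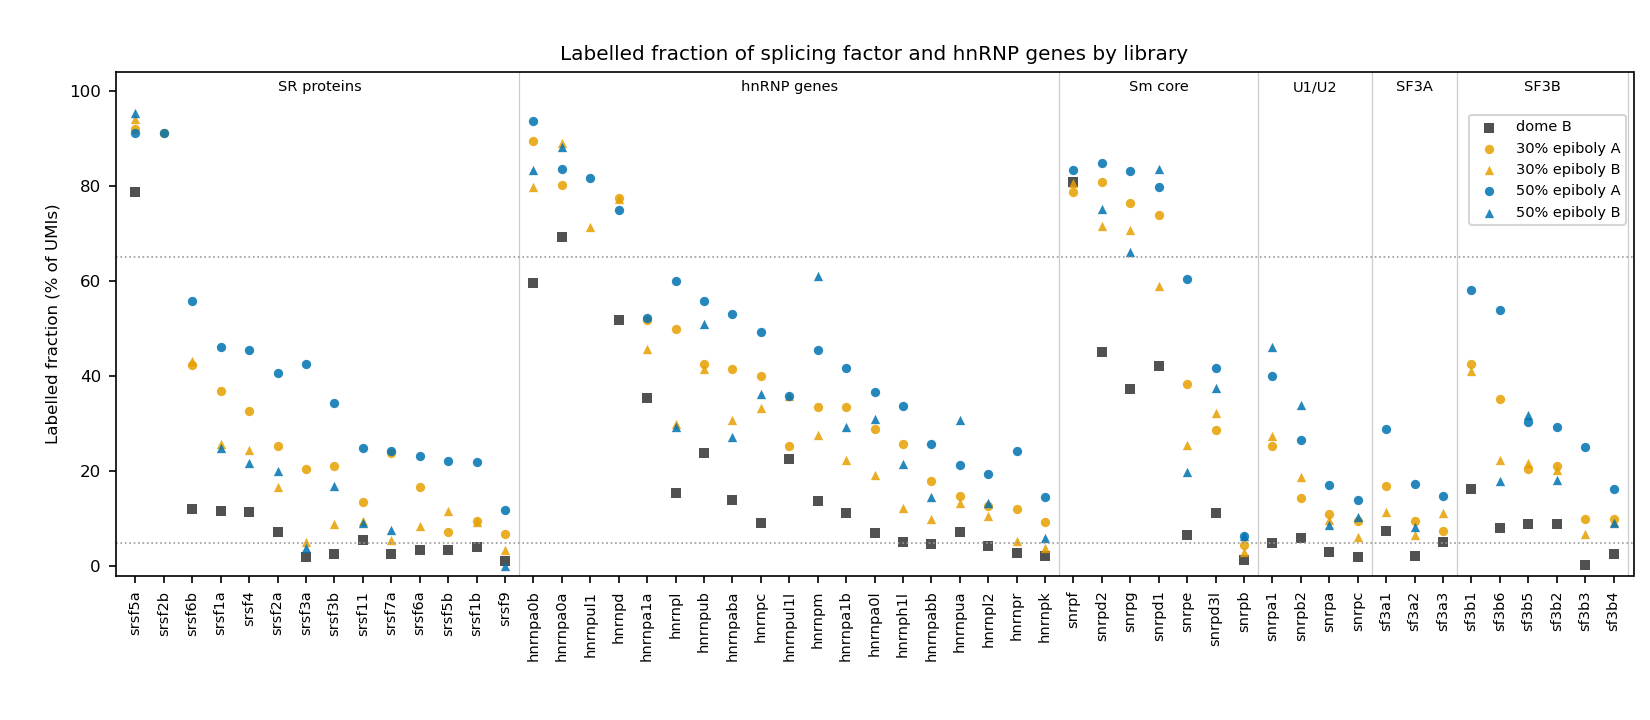
Labelled fraction (percent of UMIs) of the 53 members with 100 or more UMIs behind it, grouped by role and sorted by the fraction over all libraries. Each point is 1 library (square, dome; orange, 30% epiboly; blue, 50% epiboly; circles, replicate A; triangles, replicate B), shown where 30 or more UMIs stand behind it, and the dotted lines mark 5% and 65%. In most columns the dome square lies lowest, 10 members sit above 65% over the libraries together, and snrpb is at or under 6.49% in every library.

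The mostly zygotic members were 2 SR protein genes, 4 hnRNP genes and 4 Sm genes. Among SR proteins, srsf5a was 90.7% labelled and srsf2b 89.8%. srsf5a was 78.7% labelled at dome, 91.9% and 94.1% at 30% epiboly (A and B), and 91.2% and 95.4% at 50% epiboly (A and B). srsf2b rests on only 156 UMIs, and in 50% epiboly replicate A it was 91.1% labelled with a 95% Wilson interval of 83.1% to 95.3%, which covers counting error only.

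Among hnRNP genes, hnrnpa0b was 86.4% labelled, hnrnpa0a 83.5%, hnrnpul1 76.2% and hnrnpd 74.3%. The value of hnrnpul1 rests on only 140 of its 1703 UMIs, with 8 at dome and 15 in 30% epiboly replicate A. That of hnrnpd rests on 1292 of 4890 UMIs, with 3 in 50% epiboly replicate B. The products of hnrnpa0a and hnrnpa0b belong to the A/B class of hnRNPs, and the mammalian counterpart of hnrnpd (AUF1) binds AU-rich elements and promotes mRNA decay. hnrnpa0b stood at 59.7% at dome, 89.4% and 79.8% at 30% epiboly and 93.7% and 83.4% at 50% epiboly in replicates A and B, so that replicate A was higher than B at both epiboly stages.

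At the other end, snrpb, the gene of SmB, was 3.88% labelled. It was followed by srsf9 with 5.49%, snrpc (a protein of the U1 particle) with 8.52%, hnrnpk (a poly-C binding hnRNP) with 8.64%, sf3a3 with 8.66%, sf3b4 with 8.94%, sf3b3 with 9.04% and sf3a2 with 9.21%. snrpb was 1.41% labelled at dome, 4.54% and 2.97% at 30% epiboly (A and B), and 6.31% and 6.49% at 50% epiboly (A and B). These values lie above 0.922%, the highest value of the injected unlabelled mRNAs pooled within a library. The injected GFP mRNA alone was 1.14% labelled at dome (527 UMIs) and 1.46% in 30% epiboly replicate B (426 UMIs). The 1.41% of snrpb at dome lies between these 2 values and is thus close to the background. srsf9 was listed at 0 in 50% epiboly replicate B, where 73 UMIs stand behind the fraction and the Wilson interval reaches 5.00%.

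Genes of SF3A, SF3B and the U1 and U2 specific group were all below 65% labelled over the libraries together. The 3 SF3A genes were 8.66% to 12.2% labelled over the libraries together, and the 6 SF3B genes 8.94% to 41.8%, the highest being sf3b1, the branch point protein, with 41.8%. The 4 genes of U1 and U2 specific proteins were 8.52% to 22.1% labelled, with snrpa, also of the U1 particle, at 10.8% and snrpa1, of the U2 particle, at the upper end.

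The genes of the Sm ring, whose proteins sit together, differed widely. snrpb was 3.88% labelled, snrpd3l 29.3% and snrpe 34.3%, whereas snrpd1 was 71.1%, snrpg 77.5%, snrpd2 78.5% and snrpf 82.1% labelled. snrpf was already 80.8% labelled at dome (Wilson interval 75.3% to 85.5%), 78.7% and 80.7% at 30% epiboly, and 83.3% and 85.1% at 50% epiboly, the last value resting on 28 UMIs. snrpd2 was 45.2% labelled at dome, 80.9% and 71.7% at 30% epiboly, and 84.9% and 75.3% at 50% epiboly. At dome the 3 less labelled genes were the more abundant ones: snrpb had 2420, snrpd3l 1183 and snrpe 385 CPM, against 320 for snrpd2, 232 for snrpd1, 124 for snrpf and 109 for snrpg.

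Like-named genes, most of them pairs of zebrafish paralogues, were compared where 50 or more UMIs stood behind both, which left 12 pairs. srsf5a was 90.7% labelled and srsf5b 11.7%, and the first was higher by 69 to 84.7 points in all 4 libraries with 30 or more UMIs for both. srsf2b was 89.8% and srsf2a 25.6% labelled, with 2 libraries to compare. hnrnpa0b was 86.4% and hnrnpa0l 25.2% labelled, a gap of 52.3 to 60.5 points in 5 of 5 libraries. hnrnpul1 was 76.2% and hnrnpul1l 30.8% labelled, in 2 libraries.

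Gaps of 1 sign were also found in 6 further pairs. hnrnpub (41.5% labelled) exceeded hnrnpua (12.9%), hnrnpaba (37.0%) exceeded hnrnpabb (16%) and hnrnpl (42.0%) exceeded hnrnpl2 (12.2%) in 5 of 5 libraries each. srsf6b (40.3%) exceeded srsf6a (13.2%), srsf1a (31.9%) exceeded srsf1b (10.8%) and hnrnpa1a (47.1%) exceeded hnrnpa1b (29.2%) in 4 of 4 libraries each. hnrnpa0a against hnrnpa0b and srsf3a against srsf3b had gaps of either sign. The treatment of reads that fit several genes is not stated in the sources at hand, so the split within a pair is uncertain to that extent. In the RefSeq gene order hnrnpa0b and hnrnpa0l are direct neighbours, as are hnrnpd and hnrnpdl, and srsf7a and hnrnpl.

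**Figure D2:**
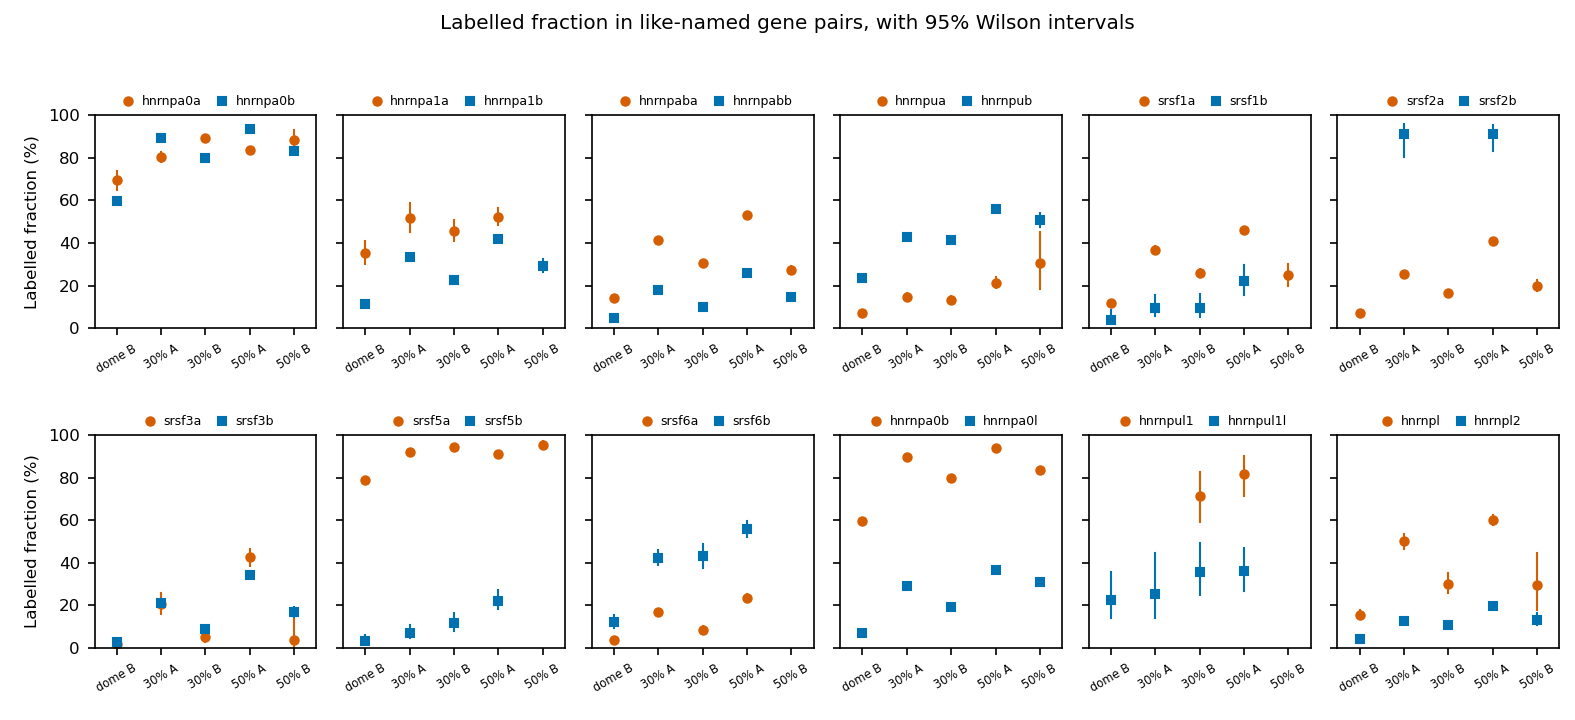
Labelled fraction (percent of UMIs) of both genes of 12 like-named pairs in each library with 30 or more UMIs behind the value. Lines are 95% Wilson intervals, which cover counting error only; srsf5a, srsf2b, hnrnpa0b and hnrnpul1 lie far above srsf5b, srsf2a, hnrnpa0l and hnrnpul1l, while srsf3a and srsf3b lie close to each other in most libraries.

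In 5 of the 12 pairs the ratio of the UMIs of both genes at dome lay within the range of the epiboly libraries, and in 7 it lay outside. The 3 pairs given next, none of them tested, were chosen for a wide shift after their values were seen. srsf5a had 2.77 UMIs per UMI of srsf5b at dome, 6.5 and 4.94 at 30% epiboly, and 8.11 and 8.40 at 50% epiboly. srsf2a exceeded srsf2b by 60.4 to 1 at dome, by 23.6 and 24.5 to 1 at 30% epiboly, and by 19.6 and 25.1 to 1 at 50% epiboly. hnrnpa0b had 0.218 UMIs per UMI of hnrnpa0l at dome and 0.407 to 0.594 in the epiboly libraries. That the dome library stood apart from the 4 epiboly libraries in all 3 pairs follows from how they were chosen.

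Total counts were then compared between stages with edgeR's quasi-likelihood test over all 5 libraries, with Benjamini-Hochberg adjustment over 12150 genes and a threshold of 5%. Dome has 1 library and no spread of its own, so the test borrows the spread of the epiboly pairs, and the stages also differ in how embryos were dissociated. Between 50% epiboly and dome, 9 of the 58 members tested rose and none fell, where 5.69% of all genes tested rose and 2.26% fell. The median log2 change was 0.62 over the members and -0.09 over all genes tested. Of the 58 members, 51 had a positive log2 change, as had 5711 of the 12150 genes.

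The 9 members that rose were snrpd2, snrpg, hnrnpa0b, srsf5a, srsf2b, hnrnpa0a, hnrnpul1, snrpd1 and snrpf. All 9 are among the 10 members that were above 65% labelled, a class that shrinks when cells with fewer UMIs of the gene are counted. The remaining one, hnrnpd, had a log2 change of 1.39 ± 0.48 (SE) and an adjusted p of 0.0750 from edgeR. The 10 members above 65% labelled had log2 changes of 1.39 to 2.31, and the other 43 members with a labelled fraction had -0.30 to 1.03. The total counts that give this change are also the counts behind the labelled fraction, so the 2 measures are not independent. The fraction over the libraries together is also weighted by UMIs, so that a gene that rises takes more of its UMIs from the later, more labelled libraries. snrpd1, 71.1% labelled over the libraries together, was 42.1% labelled at dome, and snrpg, 77.5% labelled, was 37.4% labelled there. At dome alone 3 of 51 members were above 65%. srsf2b and hnrnpul1 had only 4 of 156 and 8 of 140 UMIs behind the fraction at dome. They met the limit of 100 UMIs through the epiboly libraries, where they are higher, so their place in this class is no independent support.

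Of the Sm genes, snrpd2 had 985 and 1075 CPM at 50% epiboly (A and B), against 320 at dome. Its log2 change was 2.12 ± 0.40 (SE), with an adjusted p of 0.00845 from edgeR. snrpg had 364 and 381 at 50% epiboly, against 109 at dome, a log2 change of 2.21 ± 0.44 (adjusted p = 0.00958). snrpd1 had 518 and 513 at 50% epiboly, against 232 at dome, with a log2 change of 1.59 ± 0.41. The 30% epiboly values of these 3 genes lay between the dome and 50% epiboly values in both replicates. snrpf had 530 and 215 at 50% epiboly, against 124 at dome (log2 change 2.08 ± 0.53), and here the 50% epiboly libraries differed more from each other than the lower of them from dome. By contrast snrpb had 1978 and 1666 CPM at 50% epiboly, against 2420 at dome, and a log2 change of 0.04 that did not pass. The log2 changes of total counts come from a fit with TMM scaling, whereas the CPM are without it. The 2 can therefore differ in size, and for snrpb the CPM were lower in both 50% epiboly libraries while the log2 change was near 0.04.

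Of the hnRNP genes, hnrnpa0b had 7938 and 5470 CPM at 50% epiboly (A and B), against 2497 at dome. Its log2 change was 1.88 ± 0.40, with an adjusted p of 0.0124 from edgeR. hnrnpa0a had 570 and 497 at 50% epiboly, against 182 at dome (2.0 ± 0.46), and hnrnpul1 had 96.9 and 64.6, against 26.8 at dome (2.08 ± 0.52). Of the SR protein genes, srsf5a had 1505 and 1086 at 50% epiboly, against 453 at dome (1.97 ± 0.43, adjusted p = 0.0135). srsf2b, a low transcript, had 93.4 and 70.0, against 23.0 at dome (2.31 ± 0.51). In each of these 5 genes all 4 epiboly libraries lay above dome.

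**Figure D3:**
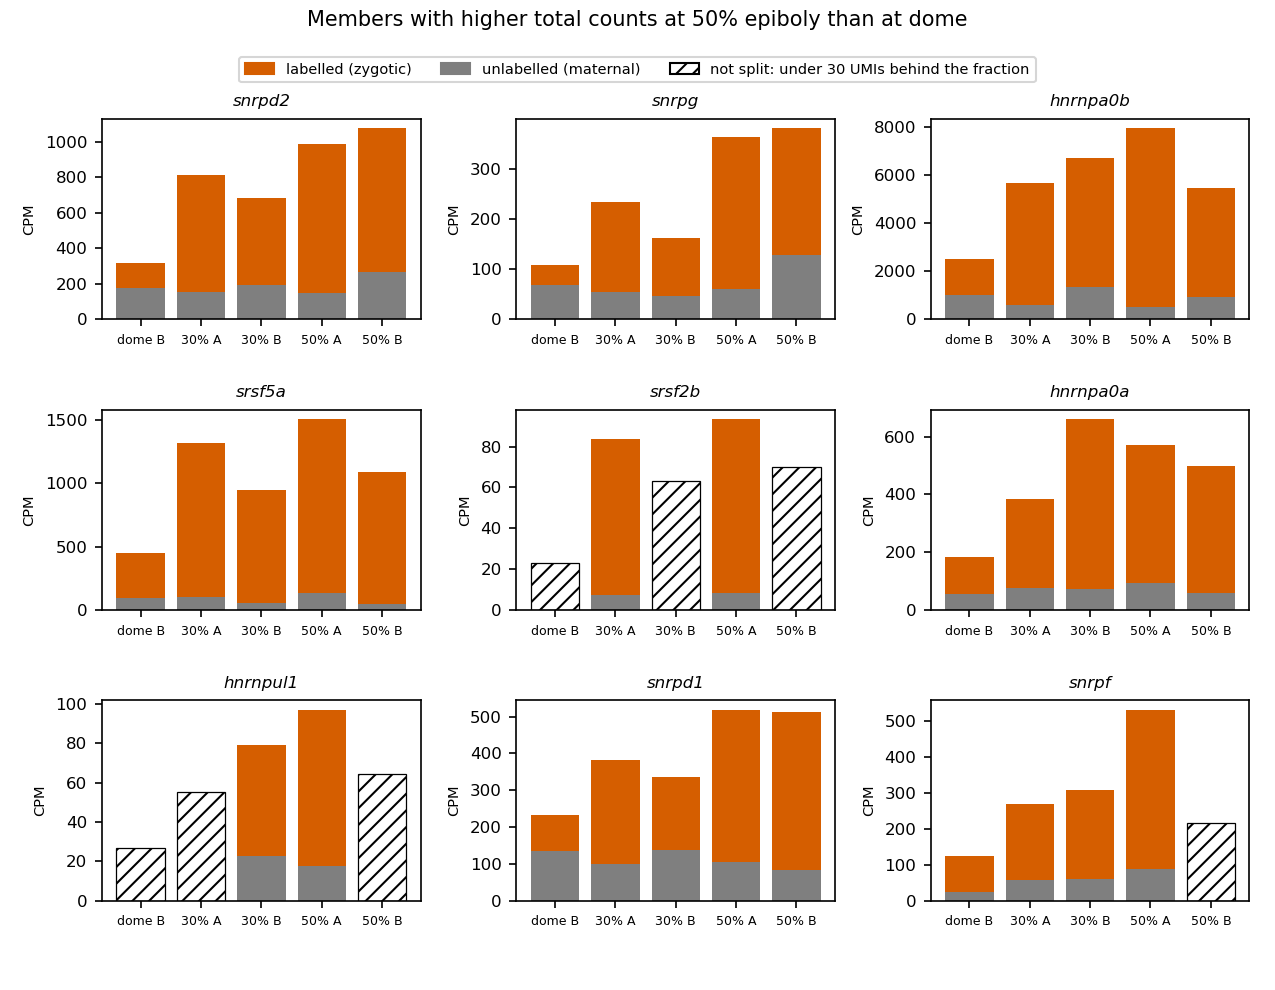
CPM of the 9 members that rose between 50% epiboly and dome, 1 bar per library in the order dome, 30% epiboly A and B, 50% epiboly A and B. Bars are split into labelled (orange) and unlabelled (grey) parts where 30 or more UMIs stand behind the fraction, and hatched where they do not. The grey part, keyed as maternal, can also hold new RNA that was read as unlabelled. In every split epiboly bar the orange part is the larger one.

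Members of SF3A and of the U1 and U2 specific group did not pass in this comparison, nor did SF3B. Their median log2 changes were -0.06 (3 SF3A genes), 0.43 (6 SF3B genes) and 0.32 (4 U1 and U2 genes), against 1.59 for the 7 Sm genes, 0.67 for the 15 SR protein genes tested and 0.65 for the 23 hnRNP genes tested. Scaling matters for these values: without TMM scaling the median over all genes was -0.56 and that over the members 0.19, and 8 of the 9 members passed, snrpd1 being lost with an adjusted p of 0.0548. Member counts in this and other alternative settings are mostly given without the share of all genes passing there. They show how stable the member calls are, not a difference from other genes. Left-out libraries changed the count upward, to 16 members without 50% epiboly replicate A and to 15 without 50% epiboly replicate B, and all 9 passed in both.

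**Figure D4:**
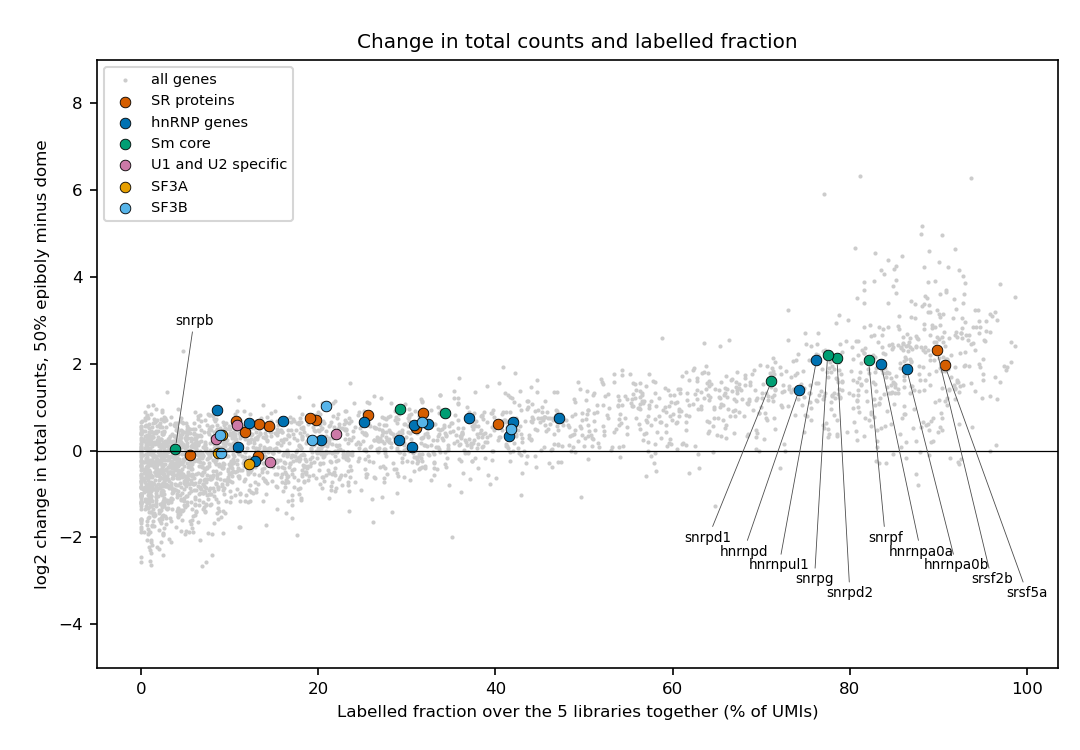
Log2 change in total counts (50% epiboly minus dome, edgeR) against the labelled fraction over the 5 libraries together (percent of UMIs). Grey points are all genes and coloured points the members, by role, with 100 or more UMIs behind the fraction; the 10 named members on the right lie at log2 changes of 1.39 to 2.31, within the grey cloud at the same labelled fraction.

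Between 30% epiboly and dome, 0 of 58 members passed in edgeR and 0.321% of all genes rose. At an unadjusted p below 0.05 there were 10 of 58 members, all with positive changes. Over all genes there were 1607 of 12150, of which 1133 had positive changes. The log2 change was positive in 54 of 58 members and in 6013 of 12150 genes. DESeq2 called 5 members higher here, and edgeR called 8 without 50% epiboly replicate A and 9 without 50% epiboly replicate B, so that this count depends on the libraries that set the spread. With the replicate letter as a block 1 member, hnrnpa0a, passed. Between 50% and 30% epiboly 0 members and 0 of all genes passed in edgeR, and DESeq2 called 0 members. An unadjusted p below 0.05 was found for 4 of 58 members and 701 of 12150 genes. Those 4 members were Sm genes, all with positive changes.

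The labelled and unlabelled parts were taken apart as the level times the labelled fraction and the remainder. They were tested with limma on log2(CPM + 1), which understates the change of low genes, over the 791 genes with 30 or more UMIs behind the fraction in every library. These included 38 members. Labelled expression rose between 50% epiboly and dome in 27 of 38 members, where 46% of all genes tested rose. The median log2 change was 2.11 over the members and 1.63 over all genes.

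Labelled expression also rose for transcripts that were mostly maternal in every library. srsf3b, whose product also takes part in mRNA export, had 476 and 309 labelled CPM at 50% epiboly (A and B), against 34.8 at dome, a log2 change of 3.42 ± 0.71 (limma, adjusted p = 0.0203). snrpc had 383 and 235, against 54.9 at dome (2.43 ± 0.57), and hnrnpa0l had 4904 and 4185, against 807 at dome (2.49 ± 0.58). snrpb, the least labelled member, had 125 and 108 labelled CPM at 50% epiboly, against 34.1 at dome (1.74 ± 0.51, adjusted p = 0.0346). In these 4 genes both 50% epiboly libraries lay far above dome, whereas their total counts did not pass the test.

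This count depends on the libraries that set the spread. It was 0 of 38 members, and 0 of 791 genes, when either 30% epiboly library was left out, with the same median change of 2.11, and 0 of 51 members without 50% epiboly replicate B. With 50% epiboly replicate A left out, 15 members rose and 1 fell. Between 30% epiboly and dome no member passed in limma, whereas 11 passed with the replicate letter as a block. An unadjusted p below 0.05 was found there for 23 of 38 members and 301 of 791 genes. All 38 members and 770 of 791 genes had positive changes. Between 50% and 30% epiboly no member passed, and 0 members and 29 of 791 genes were below that p.

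Unlabelled expression passed for no member in any of the 3 comparisons, at a background of 0.632% of genes falling between 50% epiboly and dome. With the replicate letter as a block 1 member, hnrnpm, fell between these stages. The median log2 change there was -0.25 over the members and -0.29 over all genes, and 3 members had an unadjusted p below 0.05 in limma. Between 30% epiboly and dome 0 members, and between 50% and 30% epiboly 2 members, were below it. None of these unadjusted differences was positive. The unlabelled part of hnrnpa0l was 8452 and 9267 CPM at 50% epiboly (A and B), against 10633 at dome. That of hnrnpub was 908 and 902, against 1590 at dome, with 1087 and 1652 at 30% epiboly (A and B) (log2 change -0.81, limma adjusted p = 0.388).

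For the labelled fraction, the median step was upward in both replicates but differed in size. From dome, the labelled fraction was higher in 51 of 51 members in 50% epiboly replicate A and in 37 of 38 in replicate B, by a median of 21.6 and 13.6 points. Over all genes it was higher in 1968 of 2183 and in 721 of 791, by a median of 18.6 and 10.7 points. In both 30% epiboly libraries it was higher than at dome in 50 of 51 members each, by a median of 16.4 and 11.1 points, against 1985 of 2274 and 1944 of 2134 of all genes, by 9.34 and 8.17 points. From 30% to 50% epiboly it was higher in 49 of 52 members within replicate A and in 24 of 38 within replicate B, by a median of 8.29 and 2.74 points. Over all genes the same steps were upward in 1874 of 2319 and 480 of 793, with medians of 6.31 and 1.26 points. The unlabelled part differed in direction between 30% and 50% epiboly. Its median log2 change over the members was -0.19 within replicate A and 0.14 within replicate B. Over all genes it was -0.35 and 0.12. Dissociation and depth differ between replicates A and B, and their part in this difference was not tested.

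Other genes of the splicing machinery, 102 genes found from a list of 103, were set beside the members. They include Sm-like (LSm) genes, helicases, SR-related genes and the polypyrimidine tract binding proteins. Of 100 tested, 4 rose and 0 fell between 50% epiboly and dome, with a median log2 change of 0.39. Of 82 with a labelled fraction 2 were above 65% labelled and 5 below 5%, with a median of 20.6%. The largest change among them was that of ptbp1a, a repressor of exon inclusion, at 2.39 ± 0.57 (edgeR adjusted p = 0.0206), which was 88% labelled. phf5a, a subunit of SF3B that does not carry its name, changed by 1.57 ± 0.46 and was 49.3% labelled.

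Cell types were then compared within libraries. The deposited names were used, and they were given by the study to clusters of total expression in these same cells, so that the members could have taken part in the clustering. Counts were summed over the cells of a type and over the remaining cells of that library and tested with edgeR with the library as a block, for 12 types with 5 or more cells in at least 3 libraries. Shares of all genes are given for these main fits only, not for the alternative settings. The study named its clusters with some of the markers used here, among them krt8, gsc, nanos3, dnd1, eve1 and sox3. It set endoderm apart by sox32, so a high value of these genes in their own type is no independent check. Of markers listed for these types, all 5 of EVL, all 3 of EndodermA and all 3 of PrechordalPlate were highest in their own type of 15, as were all 5 of PGC. This held for 2 of 3 in NeuralEcto, 2 of 4 in VentralMargin, 1 of 3 in Notochord, 1 of 4 in YSLContam, 3 of 4 in SevenSleeper and 0 of 3 in NonNeuralEcto, where sox3, a neural marker, was at its highest, so that this last name is not borne out by these markers and is used as a label only. Other names were borne out weakly. In YSLContam the marker that was highest, mxtx2, had 9.84 CPM, and the remaining markers were highest in EndodermB. Notochord ranked 6 of 15 for tbxta, and otx2b had 3.58 CPM in NeuralEcto.

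Cells deposited as NeuralEcto had the most members higher than other cells. There 10 of 57 members were higher and 0 lower, where 6.24% of all genes tested were higher and 8.91% lower. They were hnrnpa0b, snrpg, srsf5a, snrpf, hnrnpa0a, snrpd2, snrpd1, snrpe, hnrnpd and hnrnpa0l, of which 8 are among the 10 members above 65% labelled. The pattern was not particular to the members: of 97 other splicing genes tested, 13 were higher and 0 lower in NeuralEcto.

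hnrnpa0b had 5748, 7202, 8541, 9225 and 6652 CPM in NeuralEcto cells of dome, 30% epiboly A and B and 50% epiboly A and B, against 2429, 5411, 6477, 7432 and 4951 in the other cells of these libraries. NeuralEcto cells were higher in 5 of 5 libraries, by a fitted log2 difference of 0.64 ± 0.09 (SE, edgeR adjusted p = 9.39e-09). srsf5a had 1439, 1622, 1282, 1603 and 1236 in NeuralEcto cells, against 432, 1258, 902, 1467 and 1020 in other cells (log2 difference 0.65 ± 0.11, adjusted p = 5.95e-07). snrpf had 370, 318, 424, 608 and 288, against 119, 259, 295, 500 and 183 (0.62 ± 0.10, adjusted p = 1.39e-06). The gap was widest at dome in all 3 genes, where most other cells belong to the type named Dome.

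NeuralEcto cells also had fewer UMIs, with a median of 1714, 1865.5, 2449, 2109.5 and 1836.5 per cell in the 5 libraries, against 3555, 2585, 4425.5, 2622 and 2154 in other cells. Set against other cells of like depth, 9 members were higher, and without 50% epiboly replicate B the count was 18. The members' UMIs together were more labelled in NeuralEcto than in other cells in 5 of 5 libraries, by 7.89 ± 4.31 points (mean ± SD), and those of all other genes by 8.02 ± 6.18 points. Labelled expression of single members did not pass there in limma (0 of 32), where 1.49% of all genes tested were higher. An unadjusted p below 0.05 was found for 14 of 32 members and 201 of 605 genes. Differences were positive for 31 of 32 members and 477 of 605 genes. Without dome 12 members passed. Unlabelled hnrnpub was lower in NeuralEcto, by 0.20 ± 0.04 on the log2 scale in 5 of 5 libraries, where 10.2% of genes were lower, and this call was lost with dome or 30% epiboly replicate B left out.

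Cells of the type Dome, which made up 1130 of 1855 cells at dome and 17 to 59 cells in each epiboly library, showed the opposite. Of 96 other splicing genes tested, 13 were lower and 0 higher in these cells. Of 57 members 18 were lower and 0 higher, where 8.53% of all genes tested were lower and 1.67% higher. Differences were negative for 52 of 57 members and 4658 of 8815 genes. All 10 members above 65% labelled were among the 18. Without 30% epiboly replicate B the count was 10, and without dome replicate B it was 28. It was 12 without TMM scaling, 13 with 20 or more cells and 14 in DESeq2, and the call of snrpg was among those lost without TMM scaling. srsf1a, hnrnpa1b and hnrnpabb passed in only 2, 3 and 4 of 10 alternatives, while hnrnpa0b, snrpf and srsf5a passed in all 10. hnrnpa0b had 2163, 3338, 3871, 5096 and 2940 CPM in Dome cells of the 5 libraries, against 3037, 5735, 6909, 7956 and 5659 in other cells (log2 difference -1.02 ± 0.11, adjusted p = 2.72e-17, lower in 5 of 5 libraries). snrpf differed by -1.38 ± 0.18 and srsf5a by -1.14 ± 0.13, each lower in 5 of 5 libraries.

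The labelled and unlabelled parts were tested in Dome cells as well. Labelled expression was lower in 11 of 21 members in limma, where 44.2% of all 321 genes tested were lower. The difference was negative in all 21 members and in 309 of 321 genes. Its median was -0.97 over the members and -1.03 over all genes. The largest differences that passed were those of hnrnpabb, at -1.30 ± 0.22, snrpc, at -1.23 ± 0.35, and hnrnpa0l, at -1.16 ± 0.16. Unlabelled expression was higher in 3 of 21 members, srsf3b by 0.35 ± 0.08, snrpd3l by 0.32 ± 0.10 and hnrnpa0l by 0.09 ± 0.02, at a background of 22.1%. With replicate B of 30% or of 50% epiboly left out this count was 0, and with 50% epiboly replicate A left out it was 1. The members' UMIs together were less labelled in Dome cells in 5 of 5 libraries, by 5.07 to 17.9 points, and those of all other genes by 5.47 to 17.7 points.

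**Figure D5:**
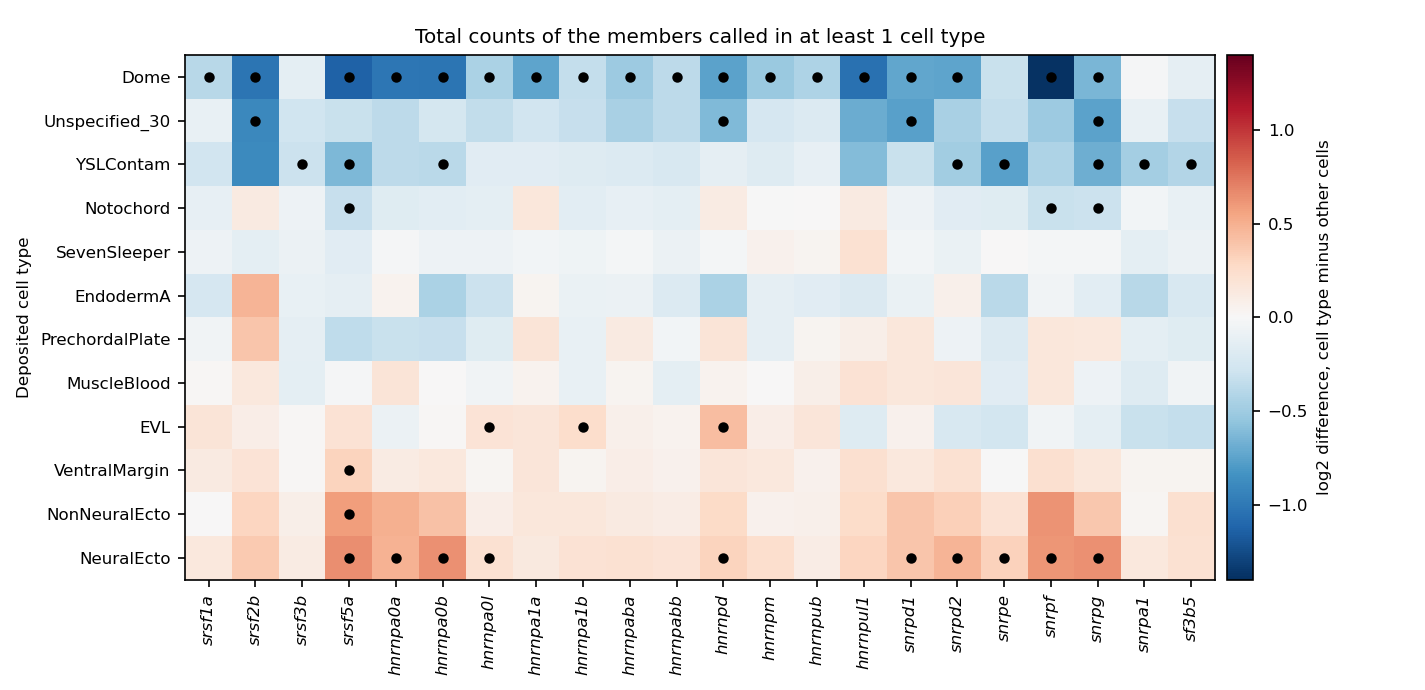
Log2 difference in total counts, cell type minus other cells of the same libraries (edgeR, library as a block), for the members that passed in at least 1 of 12 deposited cell types. Red is higher and blue lower in the type, and a black dot marks an adjusted p under the 5% threshold; the dots lie on blue cells in the 4 top rows and on red cells in the 4 lowest rows.

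In EVL cells, which form the enveloping layer around the embryo, 3 of 57 members were higher and 0 lower, where 8.46% of all genes were higher and 4.19% lower. They were hnrnpd by 0.43 ± 0.14, hnrnpa1b by 0.24 ± 0.07 and hnrnpa0l by 0.19 ± 0.06 on the log2 scale, higher in 4 of 4, 4 of 4 and 3 of 4 libraries. The direction of the calls depends on scaling. Without TMM scaling, which moves the median over all genes from -0.10 to -0.24, 0 members were higher and 8 lower. With 1 of the 4 libraries left out the count higher was 0 or 1, and without dome 5 members were lower. Unlabelled sf3b5, sf3b4 and snrpb2 were lower in EVL cells, by 0.54 ± 0.16, 0.30 ± 0.09 and 0.35 ± 0.11, at a background of 11.2%, and this count was 0 without 30% epiboly replicate A, 30% epiboly replicate B or 50% epiboly replicate A and 7 without dome. The labelled share of the members' UMIs in EVL cells was within 1.96 points of that in other cells in all 4 libraries, 2 of them higher and 2 lower, whereas that of all other genes was higher by 3.50 to 9.84 points in 4 of 4 libraries. These shares are weighted by UMIs. Gene by gene, labelled expression was lower in EVL for 27 of 38 members (median -0.18) and for 565 of 789 genes (median -0.28). In EndodermA and PrechordalPlate the share of other genes was also higher in 4 of 4 libraries, and that of the members in 1 and 2.

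In the remaining types fewer members passed than in NeuralEcto or Dome cells. In YSLContam cells 8 members were lower (3.71% of genes), led by srsf5a with -0.63 ± 0.11, snrpe with -0.76 ± 0.15 and hnrnpa0b with -0.38 ± 0.08, in 4 of 4 libraries each. This count was 4 without TMM scaling, 2 in DESeq2 and 22 with no filter on low counts, and 5, 2 and 5 without dome, 30% epiboly replicate A and 50% epiboly replicate A. In Unspecified_30 cells 4 were lower (3.53% of genes), namely snrpd1, snrpg, srsf2b and hnrnpd, by 0.61 to 0.90. The count was 0 without TMM scaling, in DESeq2, and without any 1 of the 3 epiboly libraries, and it was 21 without dome.

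In Notochord cells srsf5a, snrpf and snrpg were lower in 5 of 5 libraries (3.8% of genes), by 0.30 to 0.32. When low genes were not filtered 28 members were lower, a count without the share of all genes in that setting. DESeq2 called 1, as did edgeR without dome or without 30% epiboly replicate A. srsf5a alone was higher in NonNeuralEcto cells, by 0.58 ± 0.17 (0.844% of genes), and in VentralMargin cells, by 0.32 ± 0.08 (1.83% of genes), each in 5 of 5 libraries. DESeq2 called neither. In NonNeuralEcto cells the count was 0 against cells of like depth and without either 30% epiboly library, and 3 without 50% epiboly replicate A. In VentralMargin cells it was 0 without 30% epiboly replicate A and 2 without dome or either 50% epiboly library. In EndodermA, MuscleBlood, PrechordalPlate and SevenSleeper cells 0 members passed in edgeR, where 4.24%, 5.88%, 7.87% and 5.66% of genes passed in either direction, with 1, 0, 0 and 0 at an unadjusted p below 0.05, and DESeq2 called 0 in each.

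Primordial germ cells (PGC) had 5 or more cells in 2 libraries only, 26 at dome and 9 in 30% epiboly replicate A, and were not tested. The members' UMIs were 5.32% labelled in PGC, against 10.3% in other cells, at dome, and 23.1%, against 32.9%, in 30% epiboly replicate A. UMIs of all other genes were also less labelled in PGC, at 7.72% against 14.0% at dome. In 30% epiboly replicate A they were 21.6% labelled, against 39.0%, so the lower labelling was not particular to the members. hnrnpa0b had 1630 CPM in PGC at dome, against 2510 in other cells, and it was 33.0% labelled in PGC, against 59.9% in other cells.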

How the data were processed

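Whole embryos were profiled by Drop-seq after 4sUTP injection and IAA conversion, and 5 libraries were used. The deposited UMI table holds raw counts per gene and cell, made by the authors from aligned and deduplicated reads, with reads of one gene name combined. The submitters' processing notes name GRCz11, whereas the methods name an earlier Ensembl assembly for the expression matrices and GRCz11 for the labelled fraction, and which of them made the deposited counts is not stated. The deposited fraction of new RNA, between 0 and 1 for each gene and cell, was estimated by the authors with GRAND-SLAM from T-to-C changes. The sources used here give neither the treatment of multi-mapped reads nor a removal of doublets. The only dome library carries the letter B in the sample labels and A in the cell names, and it was taken as 1 library. A further 10 columns per cell were not used.

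Counts were summed per library, or per cell type and library, without the injected RNAs, which held 0.534% of UMIs. A labelled fraction over cells is the mean weighted by UMIs, over cells with 3 or more UMIs of the gene, for genes with 50 or more UMIs in all. Totals were tested with edgeR 4.0.16 (quasi-likelihood, TMM) and labelled and unlabelled parts with limma 3.58.1 on log2(CPM + 1), CPM without TMM, in R 4.3.3, with Benjamini-Hochberg adjustment over all genes of a fit at 5%. edgeR gives no SE, so the SE beside its log2 changes is the absolute change over the square root of the test's F statistic. It is approximate. DESeq2 1.42.0 was an alternative. Cell type tests had the library as a block. The fits were tested on simulated data. By the methods of the study, the epiboly replicates are embryo pools collected separately, the first dissociated by hand and the second by shaking. With A taken as the first and B as the second, the letters pair the 30% and 50% epiboly libraries by dissociation. The p-values cover the spread between pools and dissociations. Deviations of replicate A from the stage means at 30% and 50% epiboly had a correlation of 0.163 across 12150 genes, with 2 pairs. In the fit with the letter as a replicate block, dome entered as B, its label letter and its dissociation, although the methods list the dome collection with the first replicate.

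The members and lists were chosen with earlier results of these data known. Named members were the 10 with most UMIs, the 8 most and 8 least labelled, those passing in a stage contrast, the 3 of lowest adjusted p per cell type and direction, both genes of like-named pairs, and members of the study's own lists, which were chosen on these samples. Others named, among them snrpb2, snrpa1, sf3b1 and hnrnpm, were chosen after their values were seen.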

Additional observations from a re-analysis of the deposited data

Results flagged for a closer look

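In 48 sets of per-library differences between a cell type and the other cells, 6 had 1 library far from the others by Dixon's criterion. Chance alone meets it in about 1 of 20 independent sets, but these sets share cells and are not independent. In 5 of the 6 sets the library was dome, with the same NeuralEcto cells behind each. NeuralEcto cells exceeded other cells there by 1.73 on the log2 scale for srsf5a, against 0.13 to 0.51 in the 4 epiboly libraries. The same difference at dome was 1.63 for snrpf (0.28 to 0.65 in the others), 1.24 for hnrnpa0b (0.31 to 0.43), 1.13 for hnrnpa0a (0.24 to 0.39) and 1.07 for snrpd2 (0.13 to 0.36). NeuralEcto was 65 of 1855 cells at dome, and their median depth was 1714 UMIs, against 3555 in the other cells. In the sixth set hnrnpm was lower in Dome cells by -1.99 in 50% epiboly replicate B, where that type had 17 cells, against -0.32 to -0.11 in the other 4 libraries. The part of cell number and depth in these differences was not tested.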

How the results depend on the processing

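Of the 9 members that rose between 50% epiboly and dome, all 9 passed without a filter on low counts, in DESeq2 and without either 30% epiboly library, and 8 passed without TMM scaling. The count was 9 to 16 with 1 library left out. Between 30% epiboly and dome the 0 members became 4 with no filter, 5 in DESeq2 and 0 to 9 with 1 library left out, and between 50% and 30% epiboly 0 to 1 were lower. For labelled expression between 50% epiboly and dome, 16 rose with 10 or more UMIs behind the fraction, and 0 to 15 with 1 library left out, where 0 to 1 fell.

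With the replicate letter as a replicate block, in which dome counted as B, 9 members rose in totals between 50% epiboly and dome and 1 between 30% epiboly and dome. Labelled expression then rose in 29 and 11 members, hnrnpm, hnrnpua and sf3b6 being added and hnrnpa0b lost between 50% epiboly and dome (adjusted p = 0.0991 for hnrnpa0b, limma), and unlabelled expression fell in 1 there. The block changed no other call in the stage comparisons.

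The cell type counts that follow stand without the share of all genes called in the same setting. Without TMM scaling the members lower were 1 in EndodermA, 8 in EVL, 1 in NeuralEcto, 3 in PrechordalPlate, 0 in Unspecified_30 and 4 in YSLContam, and 0 were higher in EVL. With no filter 5 were lower in EndodermA, 5 in EVL, 1 in MuscleBlood, 28 in Notochord and 22 in YSLContam, while 0 were higher in EVL and 4 in NonNeuralEcto. With 20 or more cells, 1 was lower in EndodermA, 1 lower in PrechordalPlate and 1 higher in MuscleBlood. DESeq2 called 0 higher in NonNeuralEcto and VentralMargin, 0 lower in Unspecified_30, 1 in Notochord and 2 in YSLContam, and 0 were higher in NonNeuralEcto against cells of like depth. In the parts, a pseudocount of 0.1 gave 0 unlabelled lower in EVL and 1 labelled lower in YSLContam, one of 10 gave 1 labelled higher in MuscleBlood, and 30 or more UMIs gave 2 labelled lower in Notochord.

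With 1 library left out, counts lower in totals were 10 to 28 in Dome, 0 to 1 in EndodermA, 0 to 5 in EVL, 1 to 3 in Notochord, 0 to 4 in PrechordalPlate, 0 to 21 in Unspecified_30 and 2 to 7 in YSLContam. Counts higher were 0 to 1 in EVL, 7 to 18 in NeuralEcto, 0 to 3 in NonNeuralEcto and 0 to 2 in VentralMargin. Unlabelled counts were 0 to 4 higher in Dome, 0 to 7 lower in EVL, 0 to 1 lower in NeuralEcto and 0 to 3 higher in Unspecified_30. Labelled counts were 0 to 2 lower in EVL, 0 to 1 higher in MuscleBlood and 0 to 12 higher in NeuralEcto. Of the labelled classes, 3 members were below 5% with pairs of 5 or more UMIs (0 to 2 with 1 library left out), and 6 were above 65% with pairs of 1 or more. The depth of 50% epiboly replicate B limits the parts to 38 members.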
